A study of Mus musculus with 12 samples.

Results

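Macrophages are the resident and recruited phagocytes of the kidney. They depend on colony stimulating factor 1 (CSF1), a growth factor that also recruits monocytes and is made by tubular, endothelial and stromal cells, and they sense it through the receptor kinase CSF1R, which also binds interleukin 34. Genes such as Cd68, Adgre1, Mrc1, Lyz2 and Tyrobp are read as markers of these cells in a tissue, while Ccr2 and Cx3cr1 encode the chemokine receptors that separate freshly recruited monocytes from patrolling and resident cells. Csf1 and 9 such genes (Csf1r, Cd68, Adgre1, Cx3cr1, Itgam, Mrc1, Lyz2, Ccr2 and Tyrobp) were followed here through kidney ischemia and reperfusion with and without Toll-like receptor 4 (TLR4), a receptor of innate immunity that macrophages carry. They are 10 of the 18193 genes that the platform annotation names alone on a probe set, and they were taken by symbol. The annotation gave them 19 probe sets, each a group of short oligonucleotides that reads 1 transcript region.

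Whole kidneys came from male mice, 8 weeks old, of strain C57BL/10 (genotype WT) or of its substrain C57BL/10ScNJ (genotype TLR4-/-, called TLR4 null). Every mouse lost its right kidney under isoflurane. In the ischemic groups the vessels of the left kidney were then clipped for 23 min, in the sham groups the clip was laid beneath them without closing, and the left kidney was taken at 4 h. Each of the 4 groups (WT sham, WT ischemic, TLR4 null sham, TLR4 null ischemic) had 3 kidneys on 3 arrays, which the labels call biological replicates. The genotypes are separate lines bought from a supplier and not littermates, so that the loss of TLR4 cannot be told apart from other differences of the substrain. In whole kidneys fewer cells of a type and less RNA per cell cannot be told apart either.

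Signals are in linear units of MAS5, the scanner software that summarises a probe set, and a difference is one of log2(signal + 15), which understates the fold of dim probe sets. Median signals ran from 61.3 to 77.6 over the 12 arrays, and 3 arrays per group limit the precision of every value. A probe set was tested with limma if its signal lay over the array's 40th percentile (40.3 to 51.7) on at least 3 of 12 arrays. Tlr4 was measured on 4 probe sets. The one with the largest gap between genotypes gave 65.6 to 120.4 on the 6 WT arrays and 0.901 to 3.38 on the 6 TLR4 null arrays. A second gave 72.9 to 134.8 and 6.33 to 60.4, also without overlap but without a call (limma adjusted p = 0.556 after sham surgery and 0.333 after ischemia), and on the other two, at most 41.4, the genotypes overlapped. Which of them the deletion covers is not given in the sources used here. Tubular genes such as Umod (16365.2 to 21893.7) and Slc34a1 (10131.0 to 14388.0) were bright on every array.

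Of the 19 member probe sets, 15 passed the filter and were tested. Those 15 cover 9 genes. Itgam, the alpha chain of the integrin Mac-1 of neutrophils and monocytes, had 1 probe set, and it stayed at 3.24 to 46.2 on the 12 arrays, over the 40th percentile on 0 of them. A second Cx3cr1 probe set stayed at 1.27 to 6.01, and 2 of the 4 Ccr2 probe sets at 10.3 to 70.9 and 14.8 to 35.2. These 4 probe sets did not pass the filter and were not tested. The brighter of those Ccr2 probe sets was over the 40th percentile on 2 arrays, and it read 27.4, 10.3 and 19.1 in TLR4 null sham against 62.5, 34.2 and 41.3 in TLR4 null ischemic kidneys, without overlap. Among the tested ones, Cx3cr1 was over the 40th percentile on 5 of 12 arrays, 1 Csf1 probe set on 5 and another on 11, and the other 12 probe sets on all 12 arrays. The leading probe set of a gene is the one with the highest mean log2 value.

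**Figure D1:**
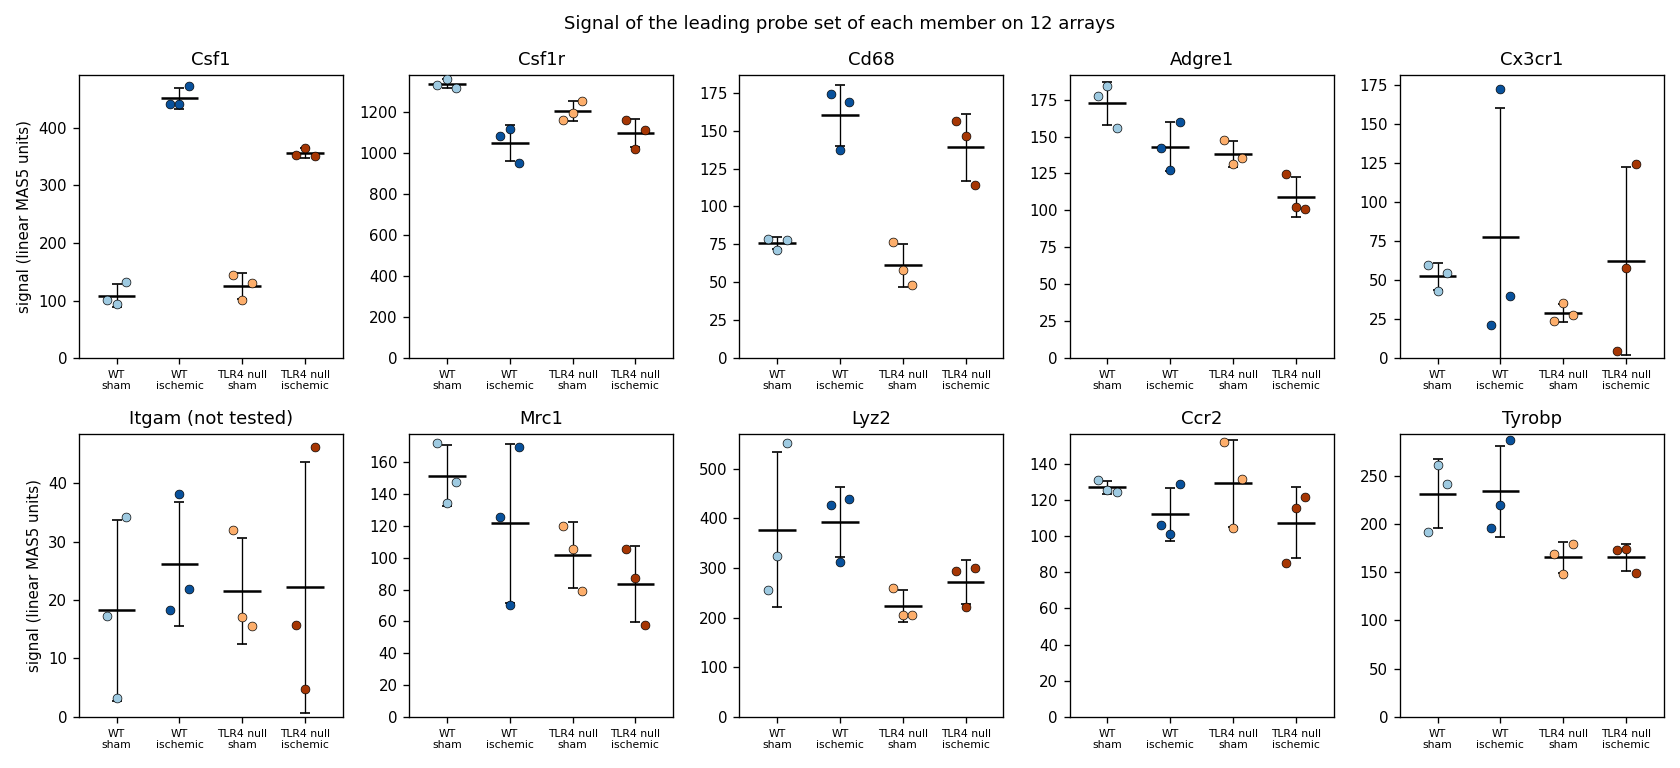
Signal of the leading probe set of each of the 10 genes (linear MAS5 units, axes from 0) on the 3 arrays of each group. Points are arrays, horizontal bars group means and error bars the SD. Csf1 and Cd68 were higher on all 6 ischemic arrays than on all 6 sham arrays, Tyrobp was lower on all TLR4 null arrays than on all WT arrays, and Itgam was too dim to be tested.

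The growth factor itself gave the largest response. The leading Csf1 probe set had signals of 100.3, 94.0 and 131.6 in WT sham kidneys and of 441.4, 441.2 and 473.2 in WT ischemic kidneys. TLR4 null kidneys had 145.1, 100.4 and 130.3 after sham surgery and 352.7, 365.7 and 351.0 after ischemia. All ischemic arrays lay above all sham arrays, the sham groups overlapped, and the WT ischemic arrays lay above the TLR4 null ischemic ones. Csf1 rose by 1.93 ± 0.15 (log2 difference ± SE, each group having 3 arrays as in all later comparisons, limma adjusted p = 4.98e-07) in WT and by 1.42 ± 0.15 (adjusted p = 9.82e-06) in TLR4 null kidneys, or 3.81-fold and 2.67-fold on that scale. The response in TLR4 null minus that in WT was -0.51 ± 0.21 (95% interval -0.95 to -0.07), and after adjustment over all probe sets it did not pass (limma adjusted p = 0.73).

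The other Csf1 probe sets are given because they disagree in size and in the sign of the difference between the responses. The second read 171.0, 202.5 and 141.0 in WT sham and 364.6, 333.0 and 306.3 in WT ischemic kidneys, and 158.8, 130.0 and 165.3 against 226.6, 301.9 and 228.2 in TLR4 null kidneys. It rose in both genotypes, by 0.92 ± 0.16 (limma adjusted p = 0.000937) and 0.68 ± 0.16 (adjusted p = 0.0078), without overlap between surgeries. Another, with the suffix _x_at that marks probes which can bind other transcripts, was dim, at 16.0 to 34.6 in WT sham and 46.2 to 64.0 in WT ischemic kidneys. TLR4 null kidneys were at 5.14 to 13.3 and 45.7 to 54.9, and it rose there (1.48 ± 0.33, limma adjusted p = 0.00535) but did not pass in WT (0.68 ± 0.33, adjusted p = 0.188). The remaining one gave 0.42 ± 0.31 and 0.54 ± 0.31 and passed in neither genotype (limma adjusted p = 0.41 and 0.277). All 4 differences were positive in both genotypes. The response in TLR4 null minus that in WT did not share a sign and passed on none of them. It was -0.51 ± 0.21 on the leading probe set and -0.24 ± 0.22 on the second. On the dim _x_at probe set it was 0.80 ± 0.46, and on the remaining one 0.11 ± 0.43.

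Cd68, a glycoprotein of lysosome membranes that is abundant in macrophages and also found in other cells with many lysosomes, was the other gene that rose in both genotypes. Its signals were 78.6, 71.6 and 78.0 in WT sham and 174.1, 137.2 and 169.2 in WT ischemic kidneys. TLR4 null kidneys gave 76.4, 58.4 and 48.5 after sham surgery and 156.5, 146.6 and 113.9 after ischemia. Every ischemic array lay above every sham array, while the genotypes overlapped within each surgery. Cd68 rose by 0.94 ± 0.19 in WT (limma adjusted p = 0.0028) and by 1.02 ± 0.19 in TLR4 null kidneys (adjusted p = 0.00138), and these responses differed by 0.08 ± 0.26 (95% interval -0.48 to 0.65).

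The promoters of Csf1 and Cd68 are shown because these are the members that rose in both genotypes. The sequences run from 250 bases before to 50 bases after the start of the gene, from RefSeq on build GRCm38.p6, where 7 of the 10 members had an entry. Both lie on the minus strand and are written 5′ to 3′ along the gene. Capitals mark matches, on either strand, to the AP-1 motif TGANTCA, the NF-kB motif and the PU.1 core GAGGAA, a factor of myeloid genes.
Csf1 (chr3:107760420-107760719): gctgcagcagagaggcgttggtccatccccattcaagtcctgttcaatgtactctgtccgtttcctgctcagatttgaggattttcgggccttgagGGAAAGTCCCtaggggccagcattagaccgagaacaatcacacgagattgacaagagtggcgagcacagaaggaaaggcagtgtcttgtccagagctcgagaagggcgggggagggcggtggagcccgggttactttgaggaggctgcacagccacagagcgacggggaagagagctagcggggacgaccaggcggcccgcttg
Cd68 (chr11:69666121-69666420): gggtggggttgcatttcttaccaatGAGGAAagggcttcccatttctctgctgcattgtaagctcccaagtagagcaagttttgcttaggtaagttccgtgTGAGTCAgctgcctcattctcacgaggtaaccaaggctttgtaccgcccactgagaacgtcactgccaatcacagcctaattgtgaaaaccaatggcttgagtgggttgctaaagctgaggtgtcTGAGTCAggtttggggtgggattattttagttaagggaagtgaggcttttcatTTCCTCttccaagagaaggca
The Csf1 window held 1 NF-kB match, at its base 97, and no match to the other motifs, and the Cd68 window held 2 AP-1 matches, at bases 102 and 227, and 2 of the PU.1 core. The matches did not overlap each other. Of 32851 promoter windows of this length, 4.51% held the NF-kB motif, 7.81% the AP-1 motif and 28.3% the PU.1 core. The PU.1 core was also matched 3 times in each of the Itgam and Mrc1 windows, and the windows of Cx3cr1, Lyz2 and Ccr2 matched none of the motifs. These are descriptions of letters in a window, and no binding was measured.

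Csf1r, the receptor of CSF1 and the gene that defines the lineage, moved the other way on its leading probe set. It gave 1333.4, 1361.0 and 1317.5 in WT sham and 1083.0, 1114.8 and 950.3 in WT ischemic kidneys. TLR4 null kidneys gave 1161.3, 1196.7 and 1255.9 after sham surgery and 1159.4, 1021.1 and 1112.1 after ischemia. The ischemic arrays lay below the sham arrays in both genotypes, by a narrow margin in TLR4 null kidneys. Csf1r fell by 0.35 on the log2 scale in WT (SE 0.09, limma adjusted p = 0.0121), and was at -0.13 ± 0.09 in TLR4 null kidneys (adjusted p = 0.349), with a difference between the responses of 0.21 ± 0.12 (95% interval -0.05 to 0.48, adjusted p = 0.849). The fall in WT was lost when arrays were scaled to equal medians (-0.26, adjusted p = 0.261) and without WT ischemic replicate 3 (-0.28, adjusted p = 0.0607). The other 2 Csf1r probe sets passed in neither genotype, at -0.34 ± 0.18 and 0.20 ± 0.19 in WT and -0.11 ± 0.18 and 0.01 ± 0.19 in TLR4 null kidneys, so that the 3 did not share a sign in WT.

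The cell surface markers of resident macrophages passed in neither genotype. Adgre1, an adhesion receptor that is the classic marker of mouse kidney macrophages, gave 177.1, 184.3 and 155.8 in WT sham and 142.4, 127.1 and 160.1 in WT ischemic kidneys. TLR4 null kidneys gave 147.8, 131.2 and 135.6 after sham surgery and 124.9, 102.5 and 100.6 after ischemia. The surgeries overlapped in WT and did not in TLR4 null kidneys, and the differences were -0.25 ± 0.15 (limma adjusted p = 0.308) and -0.31 ± 0.15 (adjusted p = 0.192). Mrc1, the mannose receptor of resident and alternatively activated macrophages and of some endothelium, spread widely within groups. It gave 172.3, 134.7 and 147.7 in WT sham, 125.7, 70.0 and 169.6 in WT ischemic, 120.2, 105.8 and 79.4 in TLR4 null sham and 105.3, 87.5 and 57.6 in TLR4 null ischemic kidneys. Its differences of -0.35 ± 0.26 and -0.26 ± 0.26 did not pass (limma adjusted p = 0.433 and 0.578).

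Tyrobp encodes the adaptor that couples many myeloid receptors to the kinase SYK, and it had no call by surgery. It gave 192.1, 261.2 and 241.1 in WT sham and 195.3, 219.9 and 286.7 in WT ischemic kidneys. In TLR4 null kidneys it gave 169.1, 148.1 and 179.0, and 172.9, 174.4 and 149.4. The differences by surgery were 0.01 ± 0.16 (95% interval -0.33 to 0.35) in WT and 0.00 ± 0.16 (-0.34 to 0.34) in TLR4 null kidneys. Lyz2, the lysozyme of macrophages, monocytes and neutrophils, gave 254.9, 323.6 and 552.6 in WT sham and 426.4, 311.2 and 438.8 in WT ischemic kidneys, with overlap. The TLR4 null values were 259.7, 204.7 and 204.8, and 294.3, 221.2 and 300.1. Its differences of 0.11 ± 0.22 and 0.27 ± 0.22 did not pass (limma adjusted p = 0.804 and 0.494).

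The chemokine receptors gave no call. Ccr2, the receptor for CCL2 on inflammatory monocytes, gave 124.4 to 130.9 in WT sham, 101.0 to 128.8 in WT ischemic, 104.2 to 152.0 in TLR4 null sham and 84.9 to 121.8 in TLR4 null ischemic kidneys on its leading probe set, with differences of -0.17 ± 0.18 and -0.24 ± 0.18. Its second tested probe set gave 94.7, 80.2 and 94.9 against 105.3, 108.4 and 125.5 in WT, where all ischemic arrays were higher. In TLR4 null kidneys it gave 106.2, 95.2 and 116.4 against 53.1, 59.9 and 101.3, where 2 of 3 ischemic arrays were below the sham range and replicate 3 was within it. The differences were 0.29 ± 0.21 (limma adjusted p = 0.405) and -0.52 ± 0.21 (adjusted p = 0.103), and that of the responses was -0.81 ± 0.29 (95% interval -1.43 to -0.19, adjusted p = 0.68). Without TLR4 null ischemic replicate 3 the difference in TLR4 null kidneys passed (-0.76, adjusted p = 0.0136), and so did the difference between genotypes after ischemia (-0.84, adjusted p = 0.0489). Neither had passed with all 12 arrays, the leading Ccr2 probe set does not show this pattern, and the untested one with signals of 10.3 to 70.9 was higher on all TLR4 null ischemic than on all TLR4 null sham arrays. Cx3cr1, the fractalkine receptor, was erratic after ischemia, at 21.3, 172.6 and 39.7 in WT and 4.45, 57.5 and 124.3 in TLR4 null kidneys, against 42.9 to 59.5 and 23.8 to 35.4 after sham surgery. Its 95% intervals, -1.21 to 1.42 and -0.90 to 1.73, span both directions.

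**Figure D2:**
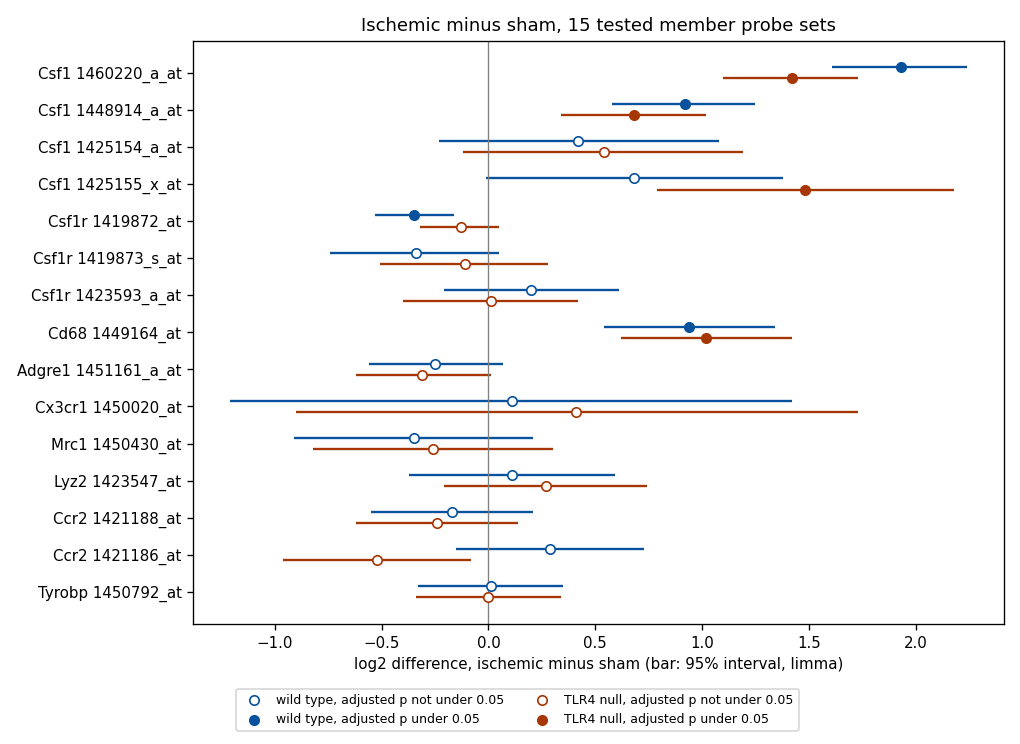
Log2 difference, ischemic minus sham, of the 15 tested member probe sets in WT (blue) and TLR4 null (brown) kidneys, with 95% intervals from limma. Filled points have an adjusted p under 0.05: 3 Csf1 probe sets and Cd68 were higher in at least 1 genotype and 1 Csf1r probe set was lower in WT, and of the open points the interval excludes 0 for the second Ccr2 probe set in TLR4 null kidneys (-0.96 to -0.08), which has an adjusted p of 0.103.

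In all, 3 of the 15 tested probe sets rose and 1 fell in WT, where 15.6% of all 30304 tested probe sets were called (7.71% higher and 7.91% lower). In TLR4 null kidneys 4 rose and 0 fell, where 16.7% of all were called (8.5% higher and 8.24% lower). The count of rises comes from Csf1 and Cd68 alone, and several of these probe sets read the same gene. The median difference over the 9 leading probe sets was 0.01 in WT and 0.00 in TLR4 null kidneys, against -0.09 and -0.07 over all 14306 tested genes. Arrays did not overlap between surgeries, with ischemia higher, for 5 of 15 in each genotype, against 14.8% and 14% of all probe sets, and with ischemia lower for 1 and 2 of 15, against 20.9% and 16.6%. Scaling the arrays to equal medians turned the split of all calls in WT from 2337 higher and 2398 lower to 2240 higher and 921 lower, and in TLR4 null kidneys from 2575 and 2497 to 2033 and 1326. No probe set of any gene was called for a difference between the 2 responses (0% of 30304, limma, with 1887 or 6.23% at an unadjusted p under 0.05, and 2 of the 15 member probe sets).

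Averaged over the genotypes, with 6 ischemic and 6 sham arrays, 4 of 15 probe sets were higher and 1 lower, where 27.3% of all were called (12.4% higher and 14.9% lower). The averages use the same arrays as the comparisons above. Csf1 was at 1.67 ± 0.10 (limma adjusted p = 1.69e-08), Cd68 at 0.98 ± 0.13 (adjusted p = 4.68e-05), and Csf1r at -0.24 ± 0.06 (adjusted p = 0.00796, and 0.181 with equal medians). Adgre1 missed the threshold at -0.28 ± 0.10 (adjusted p = 0.0646). It passed with a variance prior that ignores signal level (adjusted p = 0.0394) and without TLR4 null ischemic replicate 1 (adjusted p = 0.0465). In the other 21 settings tried it did not pass, with a limma adjusted p of up to 0.182.

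No member was called between the genotypes, although most of their values were lower in TLR4 null kidneys. All 9 leading probe sets were lower in TLR4 null than in WT kidneys when averaged over the surgeries, with a median of -0.32 against 0.00 over all tested genes. This direction was not particular to the members. Lower too were 9 of 10 endothelial (median -0.23), 8 of 10 dendritic cell (-0.16) and 5 of 5 fat markers (-0.94). Tubule and neutrophil markers did not share it, with 3 of 9 (median 0.01) and 4 of 10 (0.04) lower. None of the 15 member probe sets passed, where 1.29% of all probe sets were called. Of the 15, 5 had an unadjusted p under 0.05, as did 11.3% of all probe sets. Tyrobp was closest (-0.45 ± 0.11, limma adjusted p = 0.0765), with all 6 TLR4 null arrays (148.1 to 179.0) below all 6 WT arrays (192.1 to 286.7). Lyz2 was at -0.58 ± 0.16 (adjusted p = 0.108), Adgre1 at -0.32 ± 0.10 (adjusted p = 0.204), Mrc1 at -0.48 ± 0.19 (adjusted p = 0.318), Cd68 at -0.23 ± 0.13 (adjusted p = 0.561) and Csf1r at -0.04 ± 0.06 (adjusted p = 0.871). Lyz2 passed without WT sham replicate 1 (-0.70, limma adjusted p = 0.0446) and in none of the other 22 settings tried. Leaving out each of the 12 arrays in turn moved its difference between -0.70 and -0.43. Within sham kidneys, where it was -0.66 with all arrays, it moved between -0.89 and -0.35.

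Within sham kidneys 0 of the 15 passed, where 0.178% of all probe sets were called (at an unadjusted p under 0.05, 3 of 15 and 8.27% of all). There, TLR4 null arrays lay wholly below WT arrays for 6 of 15 and above for 1, against 8.19% and 6.88% of all probe sets. Within ischemic kidneys 0 of 15 passed, where 0.406% were called (at an unadjusted p under 0.05, 6 of 15 and 10.1% of all), and TLR4 null arrays lay below for 6 and above for 0, against 6.78% and 7.03%. Tyrobp and Adgre1 lay below in both surgeries. The leading Csf1 probe set was at 0.18 ± 0.15 in sham and -0.33 ± 0.15 in ischemic kidneys (limma adjusted p = 0.847 and 0.463). Its groups ranked WT ischemic, TLR4 null ischemic and then the sham groups, which overlapped. The other Csf1 probe sets kept their sign between sham and ischemic kidneys, without a call. The second was at -0.16 ± 0.16 and -0.40 ± 0.16, and the dim _x_at one at -0.87 ± 0.33 and -0.07 ± 0.33. The remaining one was at 0.04 ± 0.31 and 0.15 ± 0.31. As on the leading Csf1 probe set, the sign differed between surgeries for the leading probe sets of Csf1r (-0.15 ± 0.09 and 0.07 ± 0.09) and Ccr2 (0.01 ± 0.18 and -0.06 ± 0.18), without a call.

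**Figure D3:**
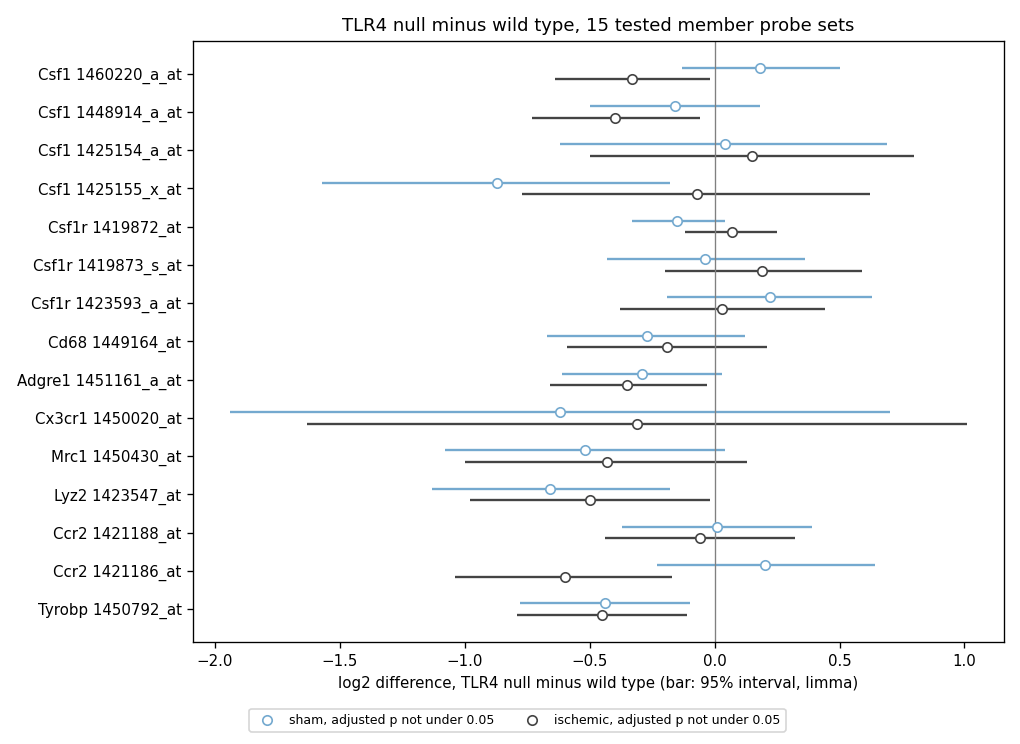
Log2 difference, TLR4 null minus WT, of the 15 tested member probe sets in sham (light blue) and ischemic (grey) kidneys, with 95% intervals from limma. No point has an adjusted p under 0.05, and most points lie left of 0, 10 of 15 in sham and 11 of 15 in ischemic kidneys.

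Perirenal fat holds macrophages too, and fat markers varied within groups with some members and not with others. The mean log2 value of Adipoq, Cidec and Retn, hormones and a lipid droplet protein of fat cells, was 7.91 to 8.73 in WT sham, 6.96 to 9.50 in WT ischemic, 6.89 to 7.86 in TLR4 null sham and 6.04 to 8.60 in TLR4 null ischemic kidneys. Adipoq itself ran from 34.8 to 1620.3 over the 12 arrays. In deviations from the group means this score correlated at 0.65 with Adgre1, 0.63 with Lyz2, 0.56 with Mrc1, 0.38 with Cd68, 0.28 with Csf1, 0.27 with Tyrobp, 0.02 with Csf1r and Itgam, -0.01 with Ccr2 and -0.79 with Cx3cr1 (Pearson, 12 arrays, which share their scaling). The Cx3cr1 probe set was dim, over the 40th percentile on 5 of 12 arrays. With the score as a covariate in limma, the averaged response of Csf1 to ischemia was 1.67 and that of Cd68 0.97, close to the values without it, and both passed. The genotype differences averaged over surgery became -0.39 for Tyrobp (adjusted p = 0.356), -0.35 for Lyz2 (0.544), -0.25 for Mrc1 (0.777) and -0.23 for Adgre1 (0.629), which are smaller than without the covariate, while that of Cx3cr1 went from -0.46 to -1.28 (adjusted p = 0.209). Fat markers were not called by genotype either, 0 of 5, with Adipoq at -1.52 ± 0.60 (limma adjusted p = 0.318). All 5 differences averaged over the surgeries were negative, with a median of -0.94, against -0.32 over the 9 leading member probe sets.

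The members did not rise and fall as one. In deviations from the group means, which leave out surgery and genotype, Cd68 and Mrc1 went together at r = 0.83 and Adgre1 and Mrc1 at 0.72 (12 arrays), while Cx3cr1 ran against Adgre1 at -0.75. Csf1 and Csf1r were at -0.29. Csf1 and Cd68, which correlated at 0.92 over the 12 arrays with the surgeries included, were at 0.31 within groups. These values are descriptions from 3 arrays a group. Those of Cx3cr1 rest on a dim probe set, over the 40th percentile on 5 of 12 arrays and erratic after ischemia.

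**Figure D4:**
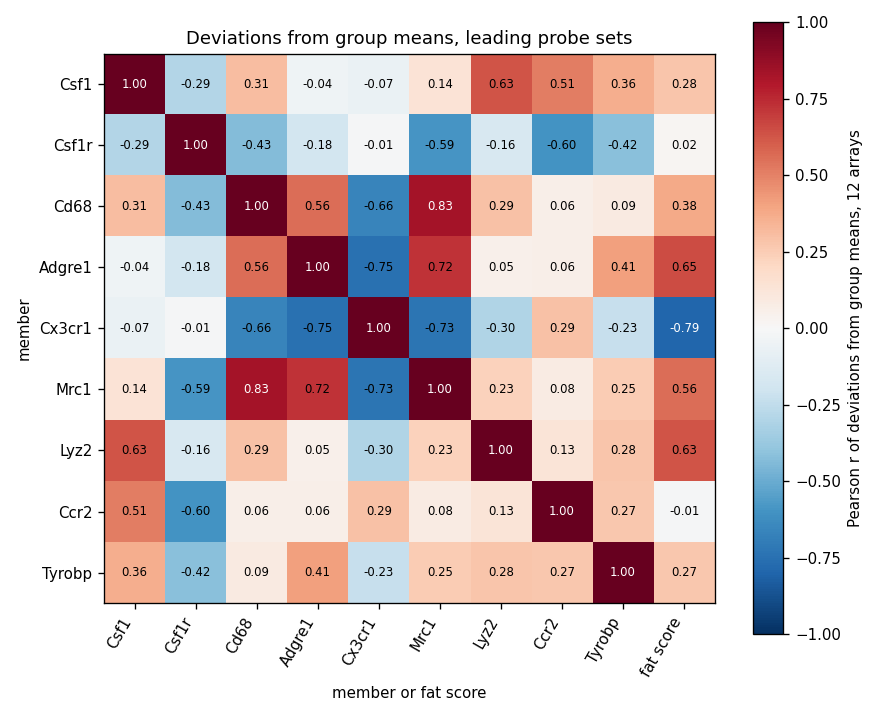
Pearson correlation of the deviations from group means over 12 arrays, between the leading probe sets of the 9 tested members and, in the last column, with the mean log2 value of 3 fat markers. Red is positive and blue negative. Cd68, Adgre1 and Mrc1 form a positive block, and Cx3cr1 is negative with each of them. The Cx3cr1 probe set was dim, over the 40th percentile on 5 of 12 arrays.

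Over the 12 arrays the genes with the pattern most like Csf1, among 14305 others, were the small nucleolar RNA host gene Snhg12 (r = 0.991), the stress phosphatase subunit Ppp1r15a (0.986), the kinase gene Map2k3 (0.983), Abtb2 (0.983) and the NF-kB subunit Rela (0.981). For Cd68 they were the exosome nuclease Dis3 (0.979), the lysosomal cholesterol transporter Npc1 (0.978), the RNA-binding protein Elavl1 (0.973), the desmosome protein Pkp2 (0.967) and the transcription factor Hesx1 (0.966). None of these is a listed myeloid marker. Adgre1 was most like Gpihbp1, a lipase anchor of capillary endothelium (0.953), Col6a1 (0.936), the inflammasome adaptor Pycard (0.933), Spc25 (0.927) and the endothelial Emcn (0.921), and Csf1r was most like Tmem189 (0.962), Trp53inp1 (0.938), Mrpl41 (0.933), Ptpn18 (0.931) and Uros (0.931).

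The other ligand of CSF1R also rose. Il34, which epithelial cells make, had 93.6 to 118.9 in WT sham and 233.8 to 255.7 in WT ischemic kidneys, and 132.3 to 139.8 and 285.4 to 419.2 in TLR4 null kidneys. It rose by 1.09 ± 0.15 (limma adjusted p = 0.000114) and 1.25 ± 0.15 (adjusted p = 3.18e-05), so that both ligands of the receptor rose in each genotype. Of 11 tested genes for CSF-family ligands and receptors, 4 rose and 2 fell over both genotypes, with a median of 0.49. Over all 14306 tested genes 13.2% were higher and 18.6% lower in that averaged comparison, with a median of -0.08. Besides Csf1, Il34 and Csf1r these were Kitl, the ligand of KIT (0.49 ± 0.11), Csf2rb, the shared beta chain of the GM-CSF receptor (0.49 ± 0.15, adjusted p = 0.0212), and Kit, which fell by 0.56. Csf3, the growth factor of neutrophils, was at 0.51 ± 0.30 (adjusted p = 0.24).

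Over both genotypes 13.2% of all 14306 tested genes were higher and 18.6% lower. These shares stand beside every list count in that comparison. Of 15 tested transcription factors that act in the CSF1R lineage, 3 rose and 2 fell over both genotypes (median 0.08). The rises were Egr2 (1.94 ± 0.16), Klf4 (1.24 ± 0.11) and Cebpb (1.18 ± 0.13), which many cell types induce early, and the falls were Maf (-0.71 ± 0.06) and Nr1h3 (-0.30 ± 0.09). Spi1, which encodes PU.1, was at -0.10 ± 0.18 (limma adjusted p = 0.726) and Irf8 at 0.27 ± 0.12 (adjusted p = 0.122). Of 12 CSF1R signalling genes 2 rose, Grb2 (0.64 ± 0.12) and Cbl (0.40 ± 0.09), and Sos1 fell by 0.50 (median -0.09).

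The wider set of macrophage markers held no rise. Of 24 tested genes, 0 rose and 6 fell averaged over the genotypes, with a median of -0.14. In that comparison 13.2% of all tested genes were higher and 18.6% lower, with a median of -0.08. Within WT 0 of the 24 were called, and within TLR4 null kidneys 0 rose and 3 fell. Scaling to equal medians cut all lower calls in the averaged comparison from 4526 to 2555, and the calls of these markers under it were not examined. The complement genes C1qa (-0.44 ± 0.09) and C1qb (-0.39 ± 0.09), which kidney macrophages make in quantity, fell together with C1qc, the protease Ctss (-0.24 ± 0.07), the phagocytic receptor Mertk (-0.25 ± 0.08) and Cyba. C1qa was at 263.3 to 348.3 in WT sham, 242.1 to 269.2 in WT ischemic, 243.6 to 271.8 in TLR4 null sham and 146.5 to 167.9 in TLR4 null ischemic kidneys. C1qa was also lower in TLR4 null than in WT kidneys after ischemia (-0.64 ± 0.13, limma adjusted p = 0.0439). It was the 1 gene of the 24 called there, where 0.406% of all probe sets were called. Of the 24 differences there, 19 were negative and 5 positive (median -0.32). Averaged over the surgeries, 21 were negative and 3 positive (median -0.21), and C1qa was again the 1 gene called. The summed signal of the 30 markers on the array was 11920 to 13010 in WT sham, 10855 to 11852 in WT ischemic, 12224 to 12702 in TLR4 null sham and 10332 to 11382 in TLR4 null ischemic kidneys, with ischemic below sham in both genotypes. Cyba, an oxidase subunit that many cells express, made up 49.3% to 63.3% of that sum on each array. The other 29 genes summed to 5387 to 5921 in WT sham and 4897 to 5502 in WT ischemic kidneys, with overlap, and to 4601 to 5125 and 3969 to 4410 in TLR4 null kidneys, without overlap. Cd163, Marco, Aif1, Trem2, Gpnmb and Timd4 were too dim to be tested.

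Among 10 tested monocyte markers 3 rose and 1 fell over both genotypes (median 0.21). The rises were Nr4a1 (1.68 ± 0.19), also an early response gene of many cells, Plac8 (0.43 ± 0.09) and Chil3 (0.69 ± 0.23, limma adjusted p = 0.0338), and Ace fell by 0.32. By genotype, averaged over the surgeries, Plac8 (-0.65 ± 0.09, limma adjusted p = 0.00239), Ms4a6c (-0.64 ± 0.12, adjusted p = 0.0122) and fibronectin (Fn1, -0.55 ± 0.10, adjusted p = 0.0158) were lower in TLR4 null kidneys, genes named after their values were seen. In that comparison 0.482% of all tested genes were higher and 1.29% lower. These shares also stand beside the genotype counts over both surgeries of the lists that follow. Plac8 was at 1180.3 to 1251.3 in WT sham and 632.9 to 898.3 in TLR4 null sham kidneys, without overlap.

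Of 9 tested chemokines that draw monocytes, 3 rose over both genotypes and 0 fell (median -0.07). Ccl2, the ligand of CCR2, rose by 0.73 ± 0.22 in WT (limma adjusted p = 0.0358) and 1.06 ± 0.22 in TLR4 null kidneys (adjusted p = 0.00376). Averaged over the surgeries, Ccl2 was lower in TLR4 null than in WT kidneys (-0.67 ± 0.16, limma adjusted p = 0.0488). It was the 1 gene of the 9 called there, where 6 differences were negative and 3 positive. Cx3cl1, the ligand of CX3CR1, was 268.3 to 293.5 in WT sham and 406.1 to 412.3 in WT ischemic kidneys and rose there (0.52 ± 0.11, adjusted p = 0.00343). In TLR4 null kidneys it was at 0.16 ± 0.11 (adjusted p = 0.368), and the difference of the responses did not pass (-0.36 ± 0.15, adjusted p = 0.743). The membrane-bound Cxcl16 rose by 0.55 ± 0.07.

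Partners of TYROBP and of ITGAM were mostly without a call. Of 12 tested genes of TYROBP partners and ITAM signalling 0 rose and 0 fell over both genotypes (limma, median -0.02), among them Siglech (-0.28 ± 0.23), Syk (0.34 ± 0.32), the related adaptor Fcer1g (-0.13 ± 0.13) and Hcst (0.30 ± 0.42). Of 8 tested integrin partners and ligands, 1 rose, Icam1 (1.07 ± 0.08), a ligand of Mac-1 on endothelium and epithelium, and 1 fell, the fibrinogen chain Fga (-1.29 ± 0.14). Itgb2, the beta chain that pairs with ITGAM, was at 0.13 ± 0.16 (adjusted p = 0.622). All 8 were lower in TLR4 null kidneys over both surgeries (median -0.33), and Fgg (-0.80 ± 0.13, limma adjusted p = 0.00856) and Fermt3 (-0.58 ± 0.12, adjusted p = 0.0258) passed.

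The lysosomal genes beside Cd68 went both ways by small amounts. Of 13 tested, 3 rose and 3 fell over both genotypes (median -0.05), where 13.2% of all tested genes were higher and 18.6% lower. Grn was at -0.38 ± 0.06, Ctsd at 0.24 ± 0.05, Ctsb at 0.18 ± 0.06 and Ctsa at -0.20 ± 0.06. The membrane proteins Lamp1 (-0.05 ± 0.07) and Lamp2 (-0.08 ± 0.07) had no call, against 0.98 ± 0.13 for Cd68. Of 10 tested activation genes of macrophages, 4 rose and 0 fell over both genotypes (median 0.23). Lgals3, a galectin of macrophages and injured tubules, rose by 2.41 ± 0.09, the prostaglandin synthase Ptgs2 by 2.74 ± 0.28, and Cd274 by 0.94 ± 0.31. Averaged over the surgeries, Lgals3 was lower in TLR4 null than in WT kidneys (-0.41 ± 0.09, limma adjusted p = 0.0456). It was the 1 gene of the 10 called there, where 8 differences were negative and 2 positive. Nos2, Arg1, Tnf, Il10 and Cd80 were too dim to be tested.

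Markers of other leukocytes moved in part with Cd68. Of 10 tested neutrophil markers 3 rose over both genotypes, Lcn2 (2.77 ± 0.18), S100a9 (1.30 ± 0.15) and S100a8 (1.21 ± 0.15), with a list median of -0.08, and the summed signal of the 12 on the array was 1320 to 1635 in WT sham, 4186 to 6351 in WT ischemic, 740 to 1176 in TLR4 null sham and 2283 to 3364 in TLR4 null ischemic kidneys. Lcn2, which injured tubules also make, was 40% to 43.8% of that sum in WT sham and 64.5% to 80.1% in WT ischemic kidneys. The other 11 genes summed to 792 to 972 and 1178 to 1723 in WT, without overlap, and to 587 to 989 and 850 to 1221 in TLR4 null kidneys, with overlap. The same 3 neutrophil markers were lower in TLR4 null than in WT kidneys over both surgeries, Lcn2 at -1.27 ± 0.18 (limma adjusted p = 0.00187), S100a8 at -0.79 ± 0.15 (adjusted p = 0.0153) and S100a9 at -0.71 ± 0.15 (adjusted p = 0.0338), and Lcn2 also within sham kidneys (-1.48 ± 0.25, adjusted p = 0.0211). The list as a whole did not share this. Of its 10 genotype differences over both surgeries 6 were positive and 4 negative, with a median of 0.04. The part of neutrophils in the member values by genotype, and in the rise of Cd68, was not tested. Of 10 tested dendritic cell markers 0 rose and 1 fell, of 4 mast cell and basophil markers 0 rose and 1 fell, and of 3 lymphocyte markers none passed in limma, with medians of -0.09, -0.35 and -0.08. By genotype over both surgeries 3 of the 10 dendritic cell markers were lower in TLR4 null kidneys, the class II antigen presentation genes H2-Aa (-0.27 ± 0.06, limma adjusted p = 0.0464), H2-Ab1 (-0.35 ± 0.08, adjusted p = 0.0486) and Cd74 (-0.38 ± 0.08, adjusted p = 0.026), which macrophages express too. Of 10 endothelial markers 1 rose and 5 fell (median -0.27), and 3 (Tek, Plvap and Emcn) were lower in TLR4 null kidneys. Adrenal (1 higher of 4), muscle (1 higher of 5), fat (1 lower of 5, the kidney enzyme Pck1), tubule (3 lower of 9) and erythroid markers (0 of 1) made up the rest.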

How the data were processed

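The deposited table holds 1 signal intensity per probe set and array, which the authors computed in MAS5 according to the submitters' processing notes. Neither version nor scaling target is given in the sources used here. All 12 arrays had the same trimmed mean (249.9) over the middle 96% of probe sets, and that scaling was kept. Names came from the platform annotation, updated by Entrez ID, with 1 gene on 34958 probe sets, several on 932 and none on 9211.

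Values were log2(signal + 15). The 30304 probe sets past the filter, without the 64 controls, were fitted in limma 3.58.1 (R 4.3.3, lmFit, eBayes with trend) with a mean for each of 4 groups (8 residual degrees of freedom). All tests were two-sided with Benjamini-Hochberg adjustment across these probe sets, and an adjusted p under 0.05 was called. A listed gene stands by its leading probe set. On simulated data for the WT comparison, the fit found 12% of added changes of 0.5 log2 units, 48% of those of 1 and 81% of those of 2, and 5 of its 116 calls were false. Changes of these sizes were added to 50, 50 and 100 of the 30304 probe sets, far fewer than the 4735 called in WT. The adjusted p depends on how many probe sets change, so these shares do not carry over to the real comparison. Python 3.11.15, numpy 2.4.6, pandas 2.3.3 and matplotlib 3.10.9 were used for the rest.

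Every member probe set is reported, of each of 20 lists up to 4 genes with the smallest p in the averaged ischemia comparison, and the 5 nearest genes of 4 members. Genes outside that rule were named after their values were seen. Members and lists were chosen with earlier results of these data known. Same-numbered replicates were not paired (median r of their deviations 0.01 over 18 pairs, -0.06 to 0.11).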

Additional observations from a re-analysis of the deposited data

How the results depend on the processing

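Of 2419 single probe set values under the alternatives (quantile and median scaling, pseudocounts of 1 and 60, no filter or one at the 60th percentile, 1 probe set per gene, no trend, array weights, only the groups compared, a replicate block, the fat score and each array left out), 2408 kept their status as called or uncalled, 3 lost a call, 8 gained one and 0 reversed. Most of the 2408 were uncalled in both fits, as the main fit called 4 member probe sets in WT, 4 in TLR4 null kidneys, 5 over both and 0 in the rest. With 1 probe set per gene, which leaves 9 of the 15, calls went from 4 to 2 in TLR4 null kidneys and from 5 to 3 over both genotypes. Leaving out each array gave 3 to 4 calls in WT, 4 to 5 in TLR4 null kidneys, 5 to 6 over both, 0 to 1 by genotype in ischemic kidneys and over both surgeries, and 0 to 0 for the difference of responses and in sham kidneys. With the replicate block the counts were 4 in WT, 4 in TLR4 null kidneys, 5 over both and 0 in the rest, so that pairing by number changed no call of a member. Array weights made the Ccr2 fall in TLR4 null kidneys pass (-0.69, adjusted p = 0.018), and eBayes without the trend the dim Csf1 probe set in WT (0.68, adjusted p = 0.049). Without WT ischemic replicate 1 the Csf1 probe set with no other call passed over both genotypes (0.62, adjusted p = 0.046). Over all probe sets, with the setting of 1 probe set per gene aside, genotype calls went from 54 in sham kidneys to 9 to 201 over the alternatives and 9 to 103 without an array, from 123 in ischemic kidneys to 17 to 188 and 17 to 368, and from 392 over both to 123 to 610 and 184 to 479. Ischemia calls went from 4735 in WT to 3161 to 5946, from 5072 in TLR4 null kidneys to 3359 to 5900 and from 8277 over both to 6225 to 9287 over the alternatives. Without TLR4 null ischemic replicate 3, 44 probe sets were called for the difference of responses. The planned fat score of 5 genes used the 3 that had a probe set of their own. The causes were not tested.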
